A study of Drosophila melanogaster with 4 samples.

Results

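Enriched regions of H3K9acS10P, called clusters here, were described along the euchromatic part of the left arm of chromosome 3 (3L) of Drosophila melanogaster. H3K9acS10P is histone H3 that carries an acetylated lysine next to a phosphorylated serine. The stretch runs from position 1, at the telomeric end, to 22543557 on FlyBase release 5 and leaves out the 2 Mb next to the centromere. A cluster belonged to it when its midpoint lay in that range, a rule on position that used no measured value. It held 1801 of the 9877 clusters of the list that the authors deposited for the pair of ChIP samples, called the combined list here. It also held 1178 of the 6080 clusters of ChIP replicate 1 and 1292 of the 7282 clusters of ChIP replicate 2.

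The ChIP-seq samples were nuclei of wild-type Oregon-R animals at the third larval instar, precipitated with 1 antibody lot against this doubly modified tail. The 2 ChIP samples are the only condition, and the 2 input samples were not analysed here. The sex of the larvae and the tissues that the nuclei came from are not given in the labels, and whether the replicates were separate cultures is not given either. The spread between them may therefore be technical. No read totals were analysed here, so depth is unknown, and the lists show only regions past the authors' threshold. A region with no cluster may lie under that threshold. As 2 replicates of 1 condition allow no test between groups, all differences below are given as values beside the spread between the replicates.

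In flies, the kinase JIL-1 phosphorylates this H3 serine, and acetylation of the lysine next to it is a mark of active chromatin. The phosphorylated serine is known to counteract the binding of heterochromatin proteins to the neighbouring lysine. On the banded polytene chromosomes of larvae, JIL-1 is known to sit in the decondensed interbands and in puffs rather than in the compact bands. Fly telomeres are built from retrotransposons, and the arms consist of gene-rich and gene-poor blocks. The gene table used here is on release 6, so no gene is placed on these release 5 coordinates.

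The mark was called in many short clusters that left most of the arm free. Clusters of the combined list covered 22.4% of the stretch, those of replicate 1 covered 15.3% and those of replicate 2 covered 16.5%, with a mean of 15.9% ± 0.846 over the replicates (SD, n = 2). In number, this was 79.9 clusters per Mb in the combined list, 52.3 in replicate 1 and 57.3 in replicate 2. The combined list was thus the longest by both measures, and the replicates lay close to each other. The corresponding stretches of the other arms, each without the 2 Mb next to its centromere, were covered at 14.4% ± 0.953 (2L), 15.9% ± 1.54 (3R), 17.5% ± 3.31 (X) and 20.1% ± 2.46 (2R) over the replicates (SD, n = 2 each). By mean, 3L lay above 2L and beside 3R, whose replicate values lay on either side of those of 3L.

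Coverage was counted in 226 bins of 100 kb, of which the last had 43.6 kb. The median bin of the combined list was covered at 20.9%, with quartiles of 11.0% and 31.9% and a range of 0 to 62.7%. Bins at 1.5 times the median or more (31.3% in the combined list) are called dense here, and bins at 0.5 of the median or less (10.4%) are called sparse. Dense bins numbered 57 of 226 (25.2%) and sparse bins 54 (23.9%), against 27.1% for each class over the 1094 bins of the 5 arm stretches, each set against its own median. The shares of dense and sparse bins on 3L were therefore near those of the large arms as a whole. The 57 dense bins held 48.4% of all covered bases and the 54 sparse bins held 4.76%. Counting only clusters of the stretch, there were 13 bins with no base in a combined cluster, and 12 of these were empty in all 3 lists.

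**Figure D1:**
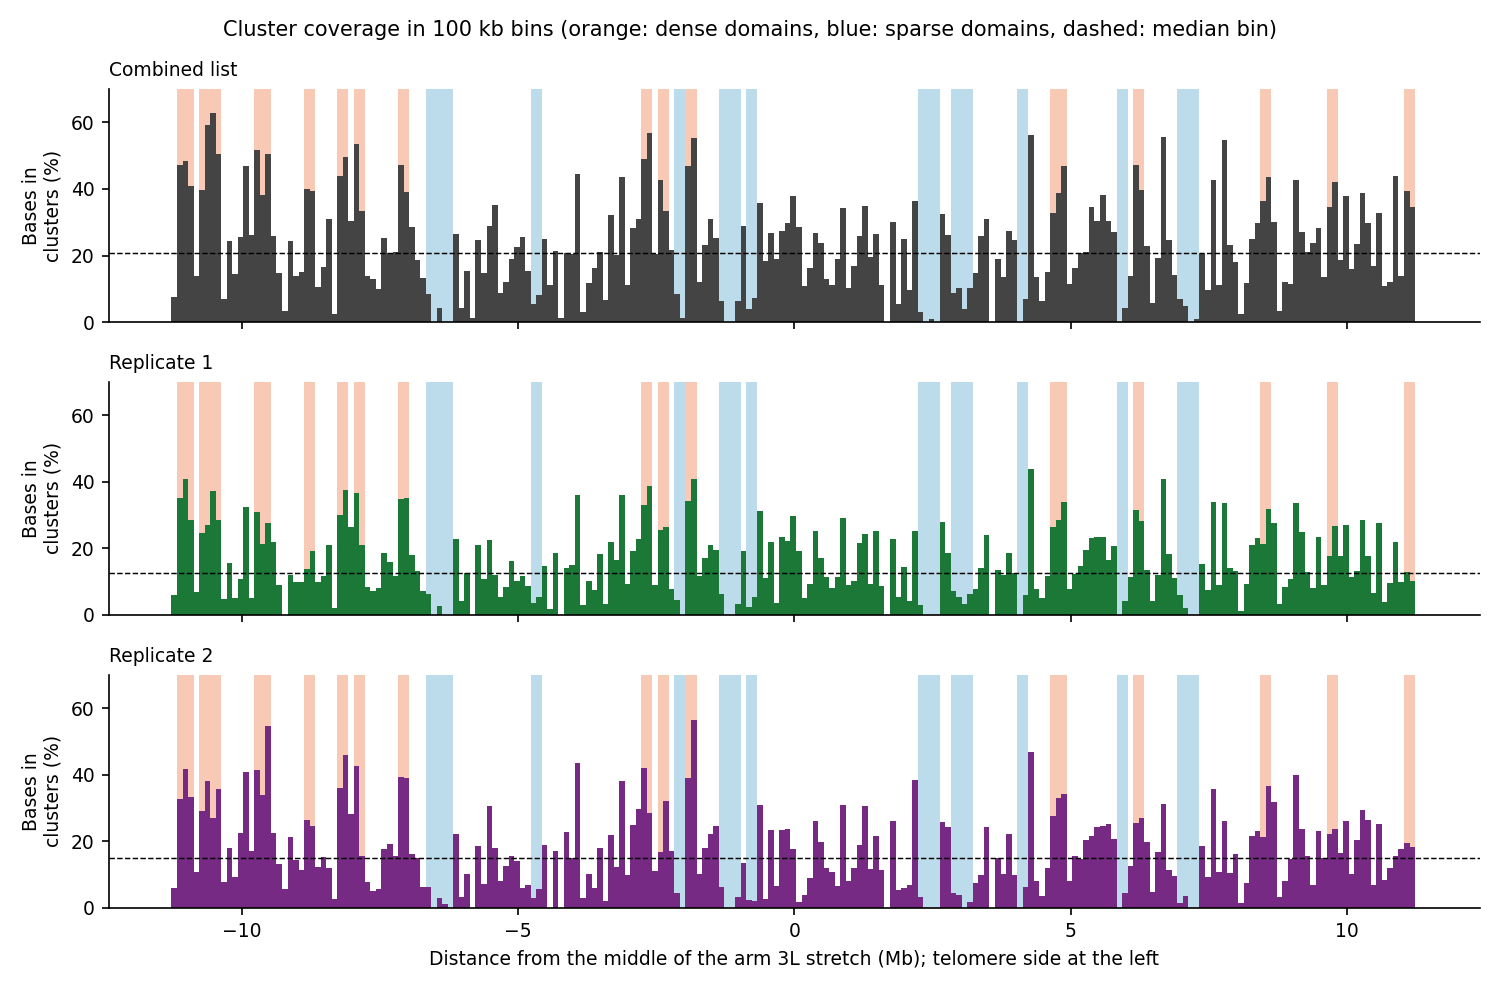
Percentage of bases in clusters per 100 kb bin (y axis) against distance from the middle of the arm 3L stretch in Mb (x axis, telomere side at the left) in the combined list, replicate 1 and replicate 2. Shading marks the 15 dense and 10 sparse domains of the combined list and the dashed line the median bin. In both replicates, 17 bins are empty of clusters of the stretch. The bin with 62.7% in the combined list has 37.4% in replicate 1 and 27.05% in replicate 2.

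The replicates placed dense and empty bins alike. Across the 226 bins, coverage in the replicates had a Spearman rho of 0.93 and a Pearson r of 0.92, given as a description because neighbouring bins share an arm and both replicates share an assembly. Bins chosen in 1 replicate were then read in the other, which the choice had not used. Of the 80 bins that were dense in replicate 1, 61 (76.25%) were dense in replicate 2, where 29.2% of all bins were. Of the 66 bins that were dense in replicate 2, 61 (92.4%) were dense in replicate 1, against 35.4% of all bins. Dense bins of replicate 1 had a median coverage of 27.1% in replicate 2, where the median of all bins was 15.0%. Only 1 bin dense in replicate 1 was sparse in replicate 2, from 11300001 to 11400000, covered at 1.83% in replicate 2 and 19.15% in replicate 1. No bin sparse in replicate 1 was dense in replicate 2.

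Sparse bins were shared to a like extent. Of the 55 bins sparse in replicate 1, 50 (90.9%) were sparse in replicate 2, against 29.2% of all bins, and their median coverage there was 2.87%. Of the 66 bins sparse in replicate 2, 50 (75.8%) were sparse in replicate 1, against 24.3%. In 17 bins neither replicate had a base in a cluster of the stretch. The last bin is among them, although a replicate 2 cluster with its midpoint past the border began just after 22543279. Replicate 2 was higher in 126 bins, replicate 1 in 83, and the median difference was 2.15 percentage points in size. The bin with the greatest excess of replicate 2 ran from 1700001 to 1800000, with 54.6% in replicate 2 and 27.6% in replicate 1.

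**Figure D2:**
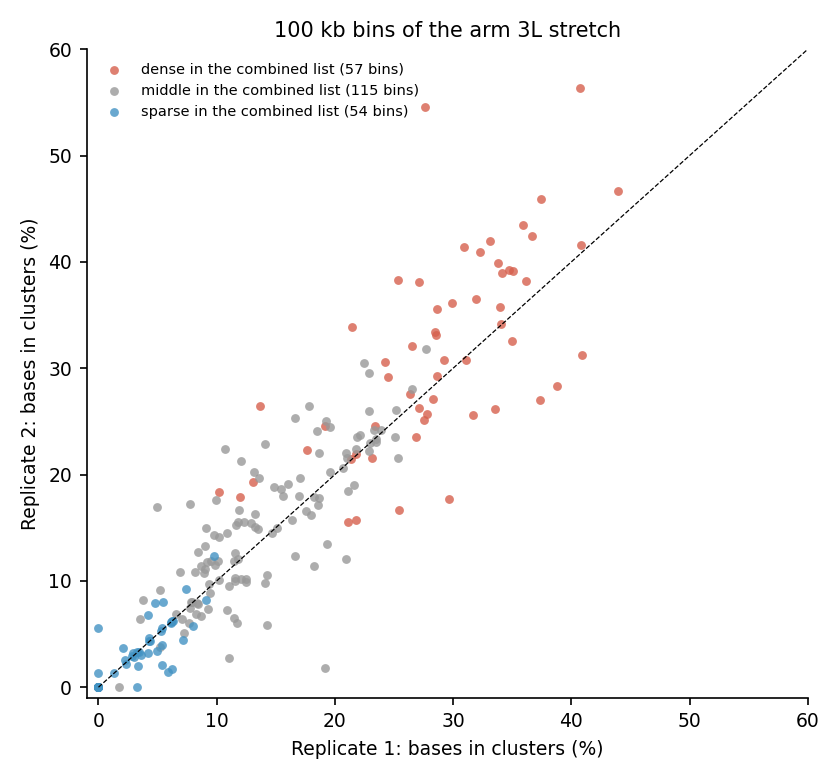
Percentage of bases in clusters in replicate 2 (y axis) against replicate 1 (x axis) for the 226 bins of 100 kb, coloured by the class of the bin in the combined list. Most of the 57 dense bins lie above and to the right of the 54 sparse bins, with dense bins of low replicate coverage between them, and the point far below the dashed line of equality is the bin with 19.15% in replicate 1 and 1.83% in replicate 2.

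Dense domains, runs of at least 2 neighbouring dense bins of the combined list, numbered 15 and took in 35 of the 57 dense bins. They spanned 200 to 400 kb and were covered at 37.0% to 53.0% in the combined list, 11.6% to 37.45% in replicate 1 and 18.9% to 47.7% in replicate 2. In 9 of the 15, every bin was dense in both replicates. Of the 35 bins, 31 were dense in replicate 1 and 29 in replicate 2, against 35.4% and 29.2% of all bins. The combined list comes from the same samples, so this is not independent support. Dense domains of the combined list were unevenly placed: 7 of them lay before 4300000, 3 between 8500001 and 9500000, and none between 9500001 and 15900000. By the same rule, each replicate alone had dense domains in that last part. The bins from 11000001 and 11100001 were dense in both, at 23.5% and 22.1% in replicate 1 and 23.4% and 23.7% in replicate 2. Their combined coverage was 27.2% and 29.7%, below the limit for dense bins. The longest dense domain of the combined list spanned 500001 to 900000 and held 60 combined clusters that covered 53.0% of it. Replicate 1 covered 29.4% of it with 37 clusters, and replicate 2 covered 32.5% with 38. In the combined list no bin of the stretch had more coverage than one of its bins, from 700001 to 800000, at 62.7%, with 37.4% in replicate 1 and 27.05% in replicate 2. The most covered bin of replicate 1 began at 15500001 (44.0%) and that of replicate 2 at 9400001 (56.4%).

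A further 3 domains were 300 kb long. From 100001 to 400000, 41 combined clusters covered 45.4%, and coverage was 34.8% in replicate 1 and 35.9% in replicate 2. The domain from 1500001 to 1800000 was covered at 46.7% in the combined list, 26.7% in replicate 1 and 43.3% in replicate 2, so here the replicates stood apart. The only one of this length in the proximal part of the stretch ran from 15900001 to 16200000, where the combined list covered 39.5%, replicate 1 29.6% and replicate 2 31.6%. The domains of 200 kb nearest the telomere began at 2400001 (39.7%), 3000001 (46.7%), 3300001 (43.4%), 4100001 (43.2%) and 8500001 (52.9%). Those from 3000001, 4100001 and 8500001 had at least 33.7% in each replicate, while the one from 2400001 reached 16.4% in replicate 1 and 25.5% in replicate 2.

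The domain from 8800001 to 9000000 was covered at 38.0% in the combined list, with 25.9% in replicate 1 and 24.4% in replicate 2. Of the 5 dense domains that were not among the 10 longest, 2 are given here because of their values. From 9300001 to 9500000 coverage was 51.1%, and the replicates had 37.45% and 47.7%, the highest domain values of each. This domain held the most covered 20 kb of the whole stretch, from 9360001 to 9380000, at 98.5% in the combined list, 86.0% in replicate 1 and 93.7% in replicate 2. The domain nearest the centromere, from 22300001 to 22500000, stood at the other extreme. It was covered at 37.0% in the combined list but at 11.6% in replicate 1 and 18.9% in replicate 2, and neither of its bins was dense in either replicate.

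By ratio, dense bins differed from sparse ones more in how many clusters they held than in how wide these were. The measures are not on like terms. Bins without clusters count only in the number, and no replicate cluster was shorter than 1302 bp, which favours a larger ratio for number. In bins chosen in replicate 1 and read in replicate 2, there were 9.30 clusters per 100 kb in dense bins, 5.22 in bins of neither class and 1.33 in sparse bins. Mean width in replicate 2 was 3125 bp in the dense bins and 2327 bp in the sparse bins, a ratio of 1.34, whereas the ratio of cluster number was 7.01. Chosen in replicate 2 and read in replicate 1, the ratios were 1.40 for width and 4.72 for number. The median distance between neighbouring clusters was 3150 bp in dense bins and 43738 bp in sparse bins of the first reading. Median scores of replicate 2 were 0.70 in the dense bins, 0.55 in bins of neither class and 0.59 in the sparse bins of the first reading. In the second reading, the distances were 4101 bp in dense bins and 23194 bp in sparse bins. Its median scores of replicate 1 were 0.76 in dense bins, 0.65 in bins of neither class and 0.53 in sparse bins. The authors give the score of each cluster, and its scale is not named, so scores are used only within 1 list.

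Blocks of like coverage were short. The Spearman rho between a bin and its neighbour was 0.24 in the combined list, 0.17 in replicate 1 and 0.24 in replicate 2, and it was 0.08, 0.08 and 0.14 at a distance of 2 bins. The other arms had 0.27 (2L), 0.13 (2R), 0.17 (3R) and 0.22 (X) between neighbouring bins of the combined list. These are descriptions over bins that share an arm. Coverage often changed abruptly: the step between neighbouring bins had a median of 11.1 percentage points and a maximum of 49.4. The largest step was at 15500000, where coverage was 6.94% in the bin before and 56.3% in the bin after, with 6.10% and 44.0% in replicate 1 and 6.18% and 46.7% in replicate 2. The step at 9300000 was the next, with 1.35% before and 46.9% after it. Both replicates had no cluster in the bin before 9300000 and 34.1% and 38.9% in the bin after.

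Empty domains were the counterpart. Between neighbouring clusters of the combined list, 164 stretches of at least 25 kb were free of clusters and made up 44.8% of the length, and 79 of these had 50 kb or more. Most were uninterrupted in the replicates: 147 of the 164 held no midpoint of a cluster of either replicate, with 1 such cluster in replicate 1 and 16 in replicate 2. This is not independent support, as the combined list comes from the same samples. On the stretch, 99.2% of replicate 1 clusters and 94.1% of replicate 2 clusters met a combined cluster, so few could lie in these gaps. Of the 79, 40 lay before position 11271778 and 39 after it. The first 1 Mb had 5 stretches of at least 25 kb and none of 50 kb, apart from the empty tip before its first cluster. Free stretches of at least 25 kb took up 58.0% ± 0.99 of 3L over the replicates, against 49.4% ± 5.18 on 2R, 60.4% ± 4.70 on the X, 60.4% ± 1.96 on 3R and 63.9% ± 0.769 on 2L (SD, n = 2 each).

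The longest free stretch of the combined list ran from 13508015 to 13764973 (257 kb), and a second of 139 kb followed from 13766013 to 13905507. A single cluster of 1039 bp, which neither replicate met, lay between them. In the replicates these 2 stretches were 1, of 403.8 kb in each, and its borders differed by 13 and 37 bp between replicates. Next came the stretch from 9967215 to 10215453 (248 kb), whose borders in the replicates differed by 16 and 49 bp. The one from 14798895 to 14961751 (163 kb) had border differences of 3 and 13 bp. These borders coincided far more closely than the width of a typical cluster.

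Some other long free stretches had 1 border that differed by kilobases between the replicates. From 15256025 to 15491401 (235 kb) the proximal borders differed by 452 bp and the telomeric ones by 20514 bp. The stretch from 4899995 to 5126489 (226 kb) was bounded by a combined cluster of 1275 bp that replicate 2 met and replicate 1 did not, so that it was 299 kb long in replicate 1 and 225 kb in replicate 2. From 17049881 to 17233713 (184 kb) the borders differed by 4218 and 183 bp, and from 12844931 to 13001497 (157 kb) by 240 and 3345 bp. The stretches from 18237175 to 18390165 (153 kb) and from 4695115 to 4824403 (129 kb) had borders within 182 and 77 bp and within 122 and 85 bp. Over all 164, 188 of 328 borders lay within 500 bp of each other in the replicates.

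**Figure D3:**
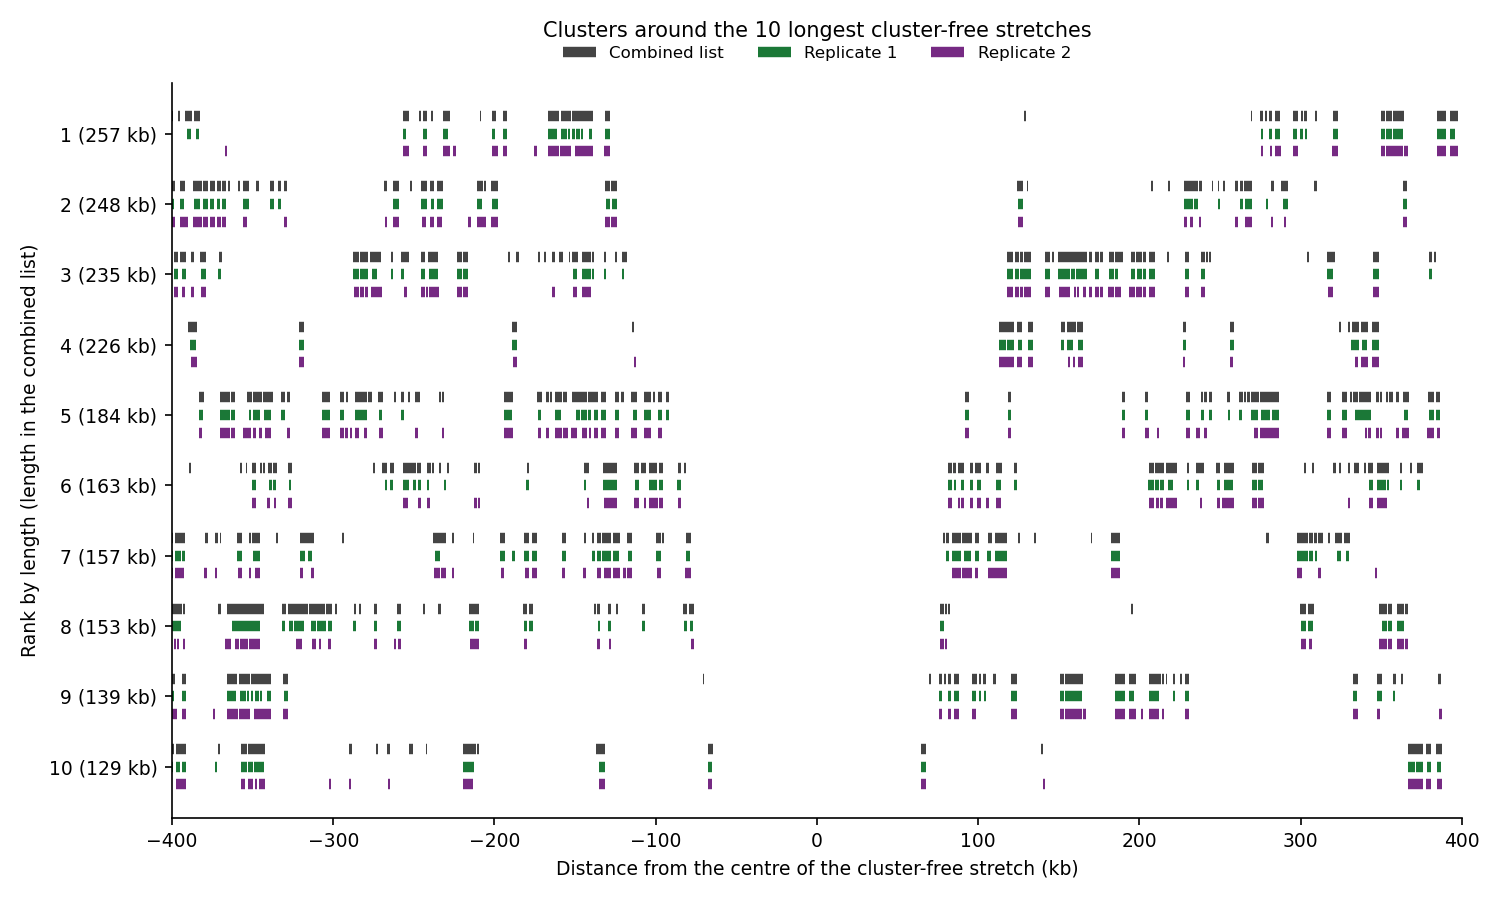
Clusters of the combined list, replicate 1 and replicate 2 (bars) around the 10 longest cluster-free stretches of the combined list, against distance from the centre of each stretch in kb. Ranks 1 and 9 are the 257 kb and 139 kb stretches that a single combined cluster of 1039 bp separates and that form 1 stretch of 403.8 kb in each replicate.

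Sparse domains, runs of at least 2 sparse bins, numbered 10 and took in 31 of the 54 sparse bins. Of these 31 bins, 30 were sparse in replicate 1 and all 31 in replicate 2, against 24.3% and 29.2% of all bins. The combined list comes from the same samples, so this is not independent support. The longest sparse domain spanned 500 kb, from 4600001 to 5100000, where 5 combined clusters covered 2.53%. Coverage there was 1.81% in replicate 1 and 2.09% in replicate 2. The emptiest, from 13500001 to 13900000, held 2 combined clusters at 1.05%, and 1 cluster in each replicate at 0.728% and 0.805%. The other 400 kb domains were covered at 3.19% (from 9900001), 8.32% (from 14100001) and 3.18% (from 18200001). The domain from 14100001 was the fullest, with 18 combined clusters, of which 4 were met by both replicates and 8 by neither. Another 5, of 200 kb each, began at 6500001 (6.68%), 9100001 (4.84%), 10400001 (5.61%), 15300001 (3.47%) and 17100001 (2.18%).

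The sparse domains from 9100001, 10400001, 13500001 and 15300001 bordered a dense bin, and the others lay between bins of neither class. Of all bins, 25.2% were dense, and whether such borders were more frequent than this share was not tested. The domain from 9100001 to 9300000 lay between bins covered at 21.6% and 46.9%, and so directly before the dense domain from 9300001. The domain from 15300001 to 15500000 ended at the bin with 56.3%. Sparse domains were most frequent in the middle of the stretch. Cut into 4 sections of equal length, the stretch had 19 dense and 13 sparse bins in the section nearest the telomere, 11 and 14 in the next, 10 and 16 in the one after it, and 16 and 11 in the section nearest the centromere. Coverage of the combined list over these sections was 25.7%, 21.5%, 19.3% and 23.1%, with 16.6%, 14.8%, 14.0% and 15.6% in replicate 1 and 19.6%, 15.7%, 13.9% and 16.5% in replicate 2. The rank order of the sections was the same in all 3 lists.

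Some clusters stood alone. In the combined list, 23 had at least 25 kb free on either side. Of these, 10 were met by both replicates and 10 by neither, so support in the replicates was 43.5% for them and 50.0% for all 1801. The 10 met by both had a median width of 2442 bp, and the 10 met by neither had 1295 bp. Of the 10 met by both, the one with the most free space ran from 4824404 to 4827278, with 129 kb before and 71.4 kb after it. It was chosen after its values were seen.

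The telomeric end was dense, with exceptions at its very tip, but it was not the only part with such coverage. From 3000001 to 3500000 coverage was 42.1% in the combined list, 30.3% in replicate 1 and 33.6% in replicate 2. From 1 to 500000 it was 31.6%, 23.5% and 24.9% in the same order. From 500001 to 1000000 it was 43.8%, 24.5% and 27.6%. The first 1 Mb was covered at 37.7% in the combined list against 21.7% over the rest of the stretch, a ratio of 1.74. Replicate 1 had 24.0% there and 14.9% over the rest, and replicate 2 had 26.2% and 16.0%, with a mean ratio of 1.63 ± 0.018 (SD, n = 2). The excess exceeded the spread between the replicates, but that spread does not measure how coverage varies along the arm. Full windows of 500 kb of the combined list ran from 5.16% (from 4500001) to 43.8% (from 500001). In each replicate the most covered such window was instead the one from 3000001, at 30.3% in replicate 1 and 33.6% in replicate 2. There is 1 telomeric end on the arm, and no test of it was possible. Ratios for the telomeric 1 Mb of the other arms were 1.73 ± 0.020 on 2L, 1.06 ± 0.091 on 2R, 0.993 ± 0.045 on 3R and 0.941 ± 0.073 on the X. The ratio of 3L was thus close to that of 2L at this length, but lay below it over 500 kb. Over 500 kb it was 1.54 ± 0.018 on 3L, against 2.16 ± 0.072 on 2L, 1.33 ± 0.076 on 3R, 1.15 ± 0.062 on 2R and 0.652 ± 0.065 on the X (SD, n = 2 each). Over 2 Mb it was 1.58 ± 0.216 on 3L, against 1.41 ± 0.052 on 2L, 1.39 ± 0.102 on the X, 1.24 ± 0.100 on 2R and 0.866 ± 0.005 on 3R. At this length replicate 1 of 3L (1.43) lay between the 2L replicates (1.37 and 1.45), while replicate 2 of 3L had 1.73.

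The first 1 Mb had more clusters, closer together, and a higher mean width. The first 1 Mb held 111 combined clusters, while the rest had 78.4 per Mb. In replicate 1 these values were 77 and 51.1, and in replicate 2 they were 83 and 56.1. Neighbours of the combined list lay a median of 1836 bp apart in the first 1 Mb and 2981 bp apart in the rest, and the distance was shorter in the first 1 Mb in both replicates too. Median width was 2305 bp in the first 1 Mb and 2200 bp in the rest, and the direction of this median differed between the replicates (2384 and 2414 bp in replicate 1, 2434 and 2296 bp in replicate 2). Mean width was 3391 bp in the first 1 Mb and 2770 bp in the rest, with 3106 and 2906 bp in replicate 1 and 3155 and 2851 bp in replicate 2. The ratio of cluster number was 1.42 in the combined list, 1.51 in replicate 1 and 1.48 in replicate 2, each below the ratio of coverage. Median score was 0.38 against 0.39 in the combined list and also lower than in the rest in each replicate (0.61 and 0.67 for replicate 1, 0.59 and 0.62 for replicate 2).

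At 20 kb resolution the end was uneven. The first 60 kb held no cluster in any list, and the first 100 kb held 1 combined cluster, from 67656 to 75340 (7685 bp, score 0.46), which met 2 clusters in each replicate. Replicate 1 had a further cluster from 62009, so its empty tip was 62.0 kb long against 67.7 kb in replicate 2. On the other arms the most telomeric combined cluster lay 4.48 kb (2R), 5.09 kb (X), 10.1 kb (3R) and 17.1 kb (2L) from the end of the sequence. From 120001 to 400000 every 20 kb bin held clusters in all 3 lists, with up to 84.7% in the combined list. Coverage was then low from 400001 to 520000, at 5.59% to 25.7% per 20 kb bin, before it was high again.

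The part beyond 520000 was led by 2 bins. From 540001 to 560000 coverage was 95.9% in the combined list, 85.5% in replicate 1 and 84.4% in replicate 2, and from 820001 to 840000 it was 87.8%, 65.2% and 86.1%. In other bins the lists disagreed: from 660001 to 680000 the combined list covered 71.3%, replicate 1 only 3.77% and replicate 2 16.2%. From 920001 to 940000 all 3 lists were empty. Of the 50 bins of 20 kb in the first 1 Mb, 16 were covered at 50% or more in the combined list and 6 were empty. Over all 1128 bins of the stretch, 14.8% reached that level and 32.0% were empty. In replicate 1 the first 1 Mb had 7 bins at that level and 7 empty, against 5.67% and 41.6% of all its bins. Replicate 2 had 8 and 8, against 7.71% and 40.7%.

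**Figure D4:**
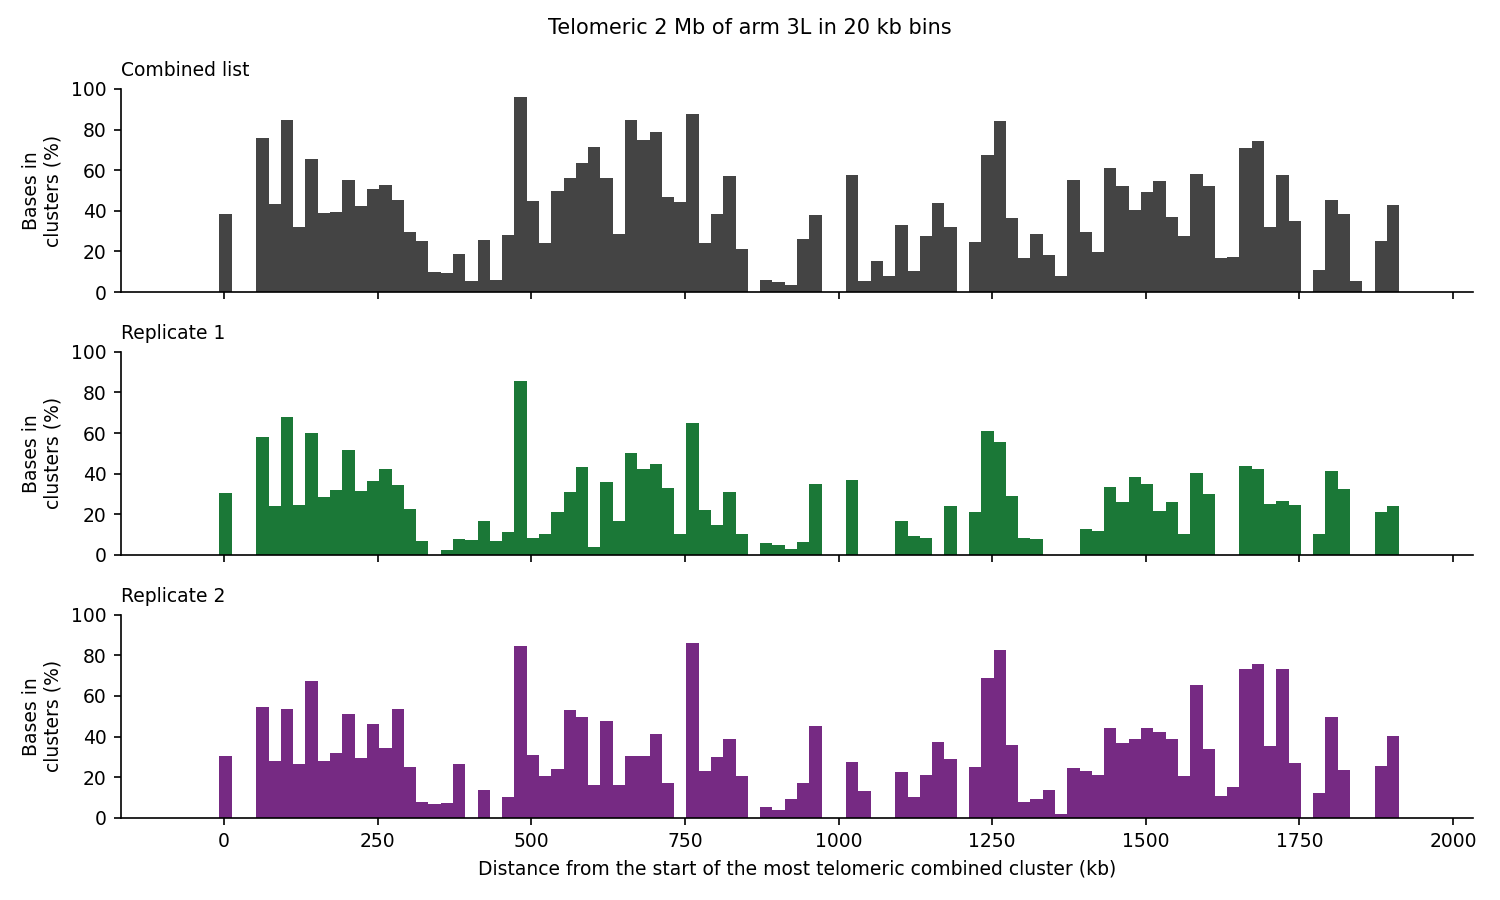
Percentage of bases in clusters per 20 kb bin (y axis) over the first 2 Mb of arm 3L, against distance in kb from the start of the most telomeric combined cluster (x axis), in the combined list, replicate 1 and replicate 2. The tip is empty in each list, and the bins with 95.9% and 87.8% in the combined list also stand out in both replicates.

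The other end of the stretch was less clear-cut. The last 1 Mb before position 22543557 was covered at 25.3% in the combined list, 13.2% in replicate 1 and 16.1% in replicate 2, and the next 1 Mb towards the centromere at 13.8%, 7.27% and 11.2%. The last 1 Mb of the arm had 7.47%, 1.95% and 5.37% in the same order. The last cluster of the stretch ended at 22470890, and the first outside it began at 22660874, so 190 kb without a combined cluster spanned the border. This gap was 193 kb in replicate 1 and 74.3 kb in replicate 2.

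Widths were skewed towards short clusters. Median width was 2207 bp in the combined list (quartiles 1445 and 3361 bp), 2414 bp in replicate 1 and 2298 bp in replicate 2, and the mean of the replicate medians was 2356 ± 81.7 bp (SD, n = 2). The other arms had replicate medians of 2371 ± 44.5 (2L), 2440 ± 47.4 (2R), 2475 ± 112 (3R) and 2572 ± 115 bp (X). By this mean 3L had the narrowest clusters of the 5 arms, but it lay below 2L by less than the spread between its own replicates. The shortest cluster had 1001 bp in the combined list, 1302 bp in replicate 1 and 1303 bp in replicate 2. The limit on width that each list was called with is not stated.

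Width went with support. Of the 1801 combined clusters, 901 met a cluster of both replicates by at least 1 bp (50.0%, 95% Wilson interval 47.7 to 52.3, counting error only), against 48.8% of all combined clusters of the series. Another 458 (25.4%) met neither, against 26.3% in the series, so 3L was near the series in both. Among the 478 clusters under 1.5 kb, 1 met both replicates and 357 (74.7%) met neither. Of those from 1.5 kb to under 3 kb, 372 of 748 (49.7%) met both, and from 3 kb to under 5 kb 343 of 386 (88.9%) did. From 5 kb to under 8 kb, 133 of 137 met both, and so did all 52 of 8 kb or more. A wider cluster has more bases in which to meet another, and the combined list comes from the same 2 samples, so these shares are not independent support. The lists also differ in their shortest clusters, with 1001 bp in the combined list and 1302 and 1303 bp in the replicates. With combined clusters narrower than any replicate cluster left out, 61.9% met both.

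**Figure D5:**
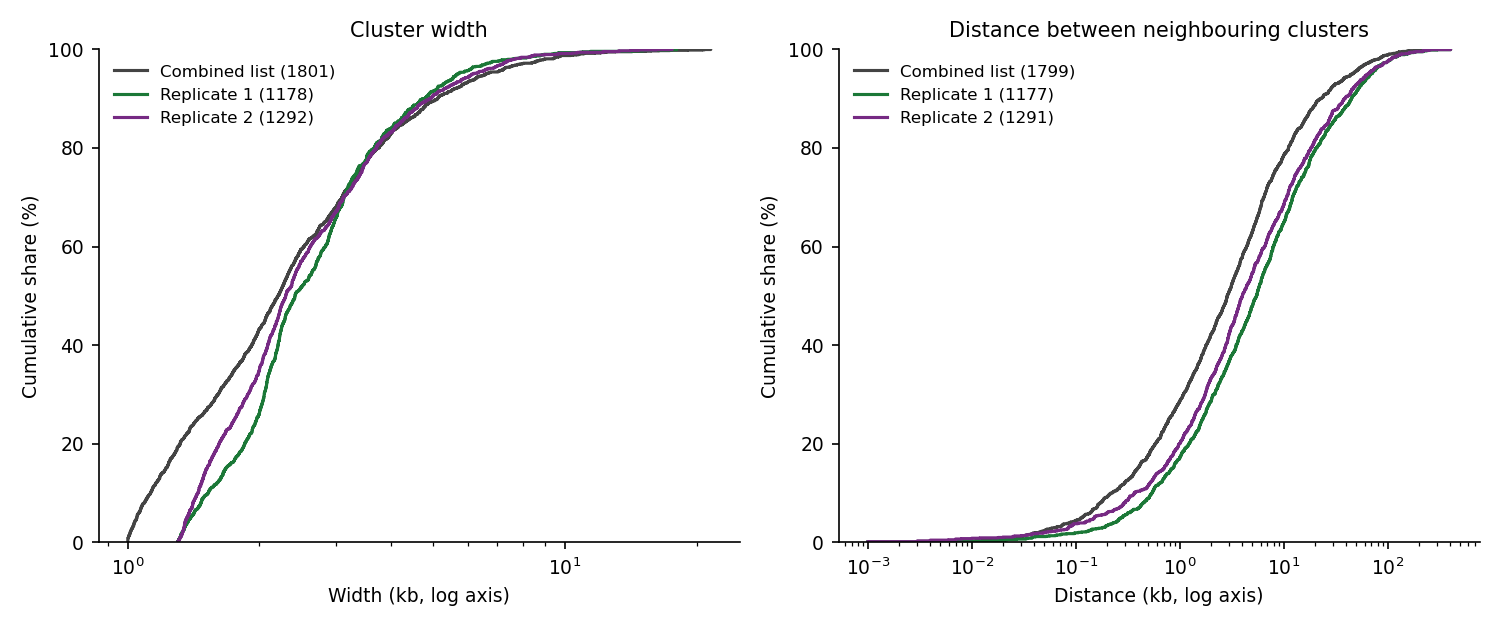
Cumulative share of clusters by width in kb (left) and of neighbouring pairs by the distance between them in kb (right), both on log axes, for the combined list, replicate 1 and replicate 2. The combined list begins at 1001 bp, below the shortest replicate clusters, and its distances are the shortest, with medians of 2867 bp against 5504 and 4018 bp.

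Between the replicates, 960 of 1178 replicate 1 clusters (81.5%, 95% Wilson interval 79.2 to 83.6) met replicate 2, and 972 of 1292 replicate 2 clusters (75.2%, interval 72.8 to 77.5) met replicate 1. In bases they shared 62.4% of their union. For 772 combined clusters with exactly 1 partner in each replicate, starts differed by a median of 127.5 bp and ends by 131 bp, and 60.8% of starts and 62.2% of ends lay within 200 bp. Widths of these partners had a Spearman rho of 0.67 and scores one of 0.85 over the 772 pairs, given as a description. Most combined clusters met in a replicate had 1 partner there. In replicate 1, 89 of the 1093 met clusters were split into 2 or more, and in replicate 2 it was 85 of 1151. These split clusters were wide, with medians of 7235 and 6757 bp.

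Clusters tended to follow each other closely. The median distance to the next cluster was 2867 bp in the combined list, with quartiles of 787 and 8205 bp, 5504 bp in replicate 1 and 4018 bp in replicate 2. In the combined list 28.5% of distances were under 1 kb and 21.6% over 10 kb. When clusters with at most 2 kb between them were joined into chains, 626 of the 1801 (34.8%) stayed alone and 34 chains held 5 or more clusters. Chains of this size numbered 7 in replicate 1 and 14 in replicate 2, where 51.5% and 45.8% of clusters stayed alone. The longest chain ran from 748582 to 787784, with 8 clusters that filled 81.2% of its 39.2 kb, and it lay in the dense domain from 500001 to 900000. Replicate 1 filled 55.0% of this span with 6 clusters and replicate 2 filled 45.3% with 5.

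The widest clusters lay along the whole stretch. The widest ran from 20923644 to 20945184 (21.5 kb, score 0.57) and was split into 3 clusters in each replicate, whose bases summed to 13576 bp in replicate 1 and 12509 bp in replicate 2. That from 17947892 to 17968730 (20.8 kb) was split into 2 in replicate 1 and 4 in replicate 2. From 19884436 to 19905036 (20.6 kb), replicate 1 had 1 cluster of 17548 bp and replicate 2 had 3. These 3 exceeded 20 kb, and none of them was a single cluster in both replicates.

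The cluster from 539084 to 558136 (19.1 kb, score 1.01) was a single cluster in both replicates, with 17997 bp in replicate 1 and 17578 bp in replicate 2, the widest of each replicate on the stretch. It fills the 20 kb bin of the telomeric end with 95.9% coverage. The cluster from 3238124 to 3252360 (14.2 kb, score 1.26) was likewise single in both, with 14202 and 14128 bp. The other 5 of the 10 widest began at 9362872 (17.4 kb), 16030722 (16.4 kb), 127862 (15.7 kb), 15523480 (15.3 kb) and 16572090 (13.0 kb). The one from 15523480 was the most broken up, into 4 clusters in each replicate, and it lay just beyond the largest step of the profile. Clusters of at least 8 kb numbered 52 in the combined list and 21 in each replicate, and a cluster this wide itself raises the coverage of its bin. Read across replicates, 18 of the 21 of replicate 2 lay in bins dense in replicate 1, which held 57.6% of all replicate 2 clusters. Of the 21 of replicate 1, 19 lay in bins dense in replicate 2, which held 49.7% of all replicate 1 clusters. This reading does not remove the effect of width. Where both replicates had the same wide cluster, as from 539084 and from 3238124, it raised the coverage of its bin in both.

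High scores were found outside the dense domains too. Among the 10 highest-scoring clusters met by both replicates, the first ran from 14029234 to 14032358 (3125 bp, score 2.15), 1 bin before the sparse domain from 14100001. Next came 2 clusters of the same dense bin, from 1666836 to 1669598 (2.12) and from 1616488 to 1619922 (2.10). The others began at 19554828 (2.04), 222920 (2.01), 3191152 (1.94), 18890068 (1.93), 4038772 (1.93), 8592566 (1.86) and 21529264 (1.86). All 10 had a single partner in replicate 2. In replicate 1, 9 had one, and the cluster from 8592566 met 2. Among the 100 highest-scoring clusters of the stretch, 51 lay in dense bins, 46 in bins of neither class and 3 in sparse bins. Of all 1801, 43.0% lay in dense bins, 51.3% in bins of neither class and 5.66% in sparse bins, so the highest scores were placed near these shares.

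Of those 100, 97 met both replicates and 3 met neither. The single highest score of the stretch, 2.27, belonged to 1 of these 3: a cluster from 19201540 to 19202540 with the minimum width of 1001 bp. The others were from 18508762 to 18509820 (1059 bp, score 1.55) and from 6034766 to 6035794 (1029 bp, score 1.48). That from 18508762 stood alone, with 113 kb free before it and 104 kb after it. In the replicates this space was 1 free stretch of 221 kb (replicate 1) and 219 kb (replicate 2). The next highest scores met by neither were 0.77 (from 9385448) and 0.74 (from 5456162), with widths of 1143 and 1241 bp. All 5 were narrower than the shortest cluster of either replicate.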

How the data were processed

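ChIP-seq of H3K9acS10P was analysed from 3 lists of enriched regions, 1 per ChIP sample and 1 for the pair. The submitters' processing notes name Bowtie 0.12.7, and coordinates are on FlyBase r5, per the file headers. The sources used here do not name the caller, its threshold or how replicates and repeats were handled. Each region has a score, deposited by the authors on a scale they do not name, and the score was used only within a list. Input values were not used here.

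Regions typed as depleted were kept out of all counts. Covered bases were counted once where clusters overlapped (1 neighbouring pair in the combined list). Bins began at position 1, and clusters were counted in the bin of their midpoint. Clusters met when they overlapped by at least 1 bp. Dense domains, sparse domains, long free stretches, widest and highest-scoring clusters were named by a fixed rule (the 10 longest, widest or highest of each, and the 5 highest met by neither replicate). Members and rules were chosen with earlier results of these data known. Wilson intervals cover counting of clusters only. Interval code was tested on simulated data, where bin coverage and overlaps matched a direct count in 10 of 10 runs. A planted dense bin counted as recovered in 10 of 10. This is a weak check, as the bin was far denser than the others and counted by rule if planted last. Python 3.11.15, numpy 2.4.6, pandas 2.3.3, scipy 1.17.1 and matplotlib 3.10.9 were used.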

Additional observations from a re-analysis of the deposited data

How the results depend on the processing

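No paired analysis was possible because only the 2 ChIP samples have lists here and they form 1 group. In each replicate alone, coverage of the stretch was 15.3% to 16.5% (22.4% in the combined list), median width 2298 to 2413.5 bp (2207 bp), median distance 4018 to 5504 bp (2867 bp) and the telomeric ratio 1.61 to 1.64 (1.74). With clusters met by both replicates, coverage was 15.8%, median width 3257 bp and median distance 6483 bp. With clusters at or above the median score, coverage was 15.4%, the share met by both 87.9% and the telomeric ratio 1.84. With clusters narrower than any replicate cluster left out, coverage was 20.7% and the share met by both 61.9%. That share was 42.5% at a reciprocal overlap of 50%. Joining clusters at most 500 bp apart gave medians of 2487 bp for width and 4134 bp for distance. The telomeric ratio was 1.42 over 500 kb, 1.64 over 2 Mb and 1.42 in clusters per Mb, above 1 under each of these settings. Stricter limits gave 29 dense bins (at 2 times the median), 30 sparse bins (at 0.25 of it) and 102 free stretches (of at least 40 kb). Numbers of dense bins, sparse bins and free stretches were within 1.5 times the main value under the other settings. Stricter limits lower these numbers, and leaving out clusters lowers coverage, by construction; the cause of the other shifts was not tested. Depth is unknown, so a region free of clusters in 1 list may lie under its threshold.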

Other observations

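A region typed as depleted was listed once in the combined list and once in replicate 2, and both lay on this stretch, at the same place. In the combined list it ran from 12734162 to 12735984 (1823 bp, score -0.11), and in replicate 2 from 12734458 to 12735958 (1501 bp, score -0.0055). Replicate 1 had an enriched cluster over it, from 12734129 to 12735992 (1864 bp), whose score of 0.18 was the lowest of its 1178 clusters on the stretch. The nearest enriched cluster of the combined list ended 4.62 kb before the depleted region, and the bin around it was covered at 26.5%.

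Some replicate clusters met nothing in the combined list: 10 of 1178 in replicate 1 and 76 of 1292 in replicate 2. The 76 were 1506 bp wide by median and scored up to 0.88, and 15 of them lay inside free stretches of at least 25 kb of the combined list.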
